A study of Mus musculus with 6 samples.

Results

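The nuclear genes for subunits of respiratory chain complexes I to IV were compared between double-knockout and wild-type mouse blood stem and progenitor cells. A gene was included when its probe set on the array carried exactly 1 gene symbol and that symbol began with Ndufa, Ndufb, Ndufc, Ndufs, Ndufv, Sdha to Sdhd, Uqcr or Cox4 to Cox8, leaving out assembly factors (Ndufaf) and pseudogenes. Where a gene had several such probe sets, the brightest over the 6 arrays was used. This gave 65 genes of 19938 measured: 36 of complex I, 4 of complex II, 8 of complex III and 17 of complex IV. The rule itself uses symbols and mean signal, though this set of genes was taken up with earlier results of these data known. No filter on dim signals was applied, so all 65 were tested. Ndufb1, Ndufb4 and Cox7c are not analysed here.

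The cells were KSL cells, bone marrow cells with cKit and Sca1 and without lineage markers, which hold the haematopoietic stem cells and the earliest progenitors. The 3 samples labelled DKO came from Runx1fl/fl;Runx3fl/fl mice with the Mx1-Cre transgene and the 3 labelled WT from littermates without it, so both groups carried the floxed alleles. Mx1-Cre is driven by an interferon-responsive promoter, which acts in many cell types and not in blood stem cells alone. It is induced with the double-stranded RNA analogue pIpC, which per the labels' protocols was given as 600 µg on 7 alternate days from 4 weeks of age, on a C57BL/6 background after at least 3 generations of backcrossing. The same protocol text stands under both groups, and the age at collection is not stated there. Each WT sample was pooled from 3 mice and pooling of the DKO samples is not stated, while the design text counts 6 mice in all, so the unit behind n = 3 is unsettled.

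The respiratory chain sits in the inner mitochondrial membrane. Complex I takes electrons from NADH and complex II from succinate, both pass them through coenzyme Q to complex III, and cytochrome c carries them on to complex IV, which reduces oxygen. Complexes I, III and IV pump protons, and ATP synthase uses the gradient to make ATP. Core subunits carry the redox centres or the proton path, and most of the genes described here encode small accessory subunits around them. Resting haematopoietic stem cells are known for relying little on oxidative phosphorylation, which increases as they differentiate.

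Values are deposited log2 signals, so a difference of 1 is a doubling, and a level is not comparable between genes. Differences are DKO minus WT from limma, with a standard error (SE) and a Benjamini-Hochberg adjusted p over all 19938 genes. A gene is said to have risen or fallen where that p was under 0.05. Correlations between arrays were 0.993 to 0.995 within DKO, 0.989 to 0.991 within WT and 0.976 to 0.980 between the groups, over all 19938 genes. The Runx1 signal was 9.22, 9.37 and 9.28 in DKO against 8.49, 8.53 and 8.38 in WT, higher in the samples labelled DKO (adjusted p = 0.000427). Runx3 gave 7.40, 7.40 and 7.34 against 7.53, 7.59 and 7.47 (adjusted p = 0.253). A gene-level probe set also reads exons outside a floxed segment, so neither value checks the deletion, and DKO below means the samples so labelled. Kit, a marker of the sort, gave 10.35, 10.72 and 10.38 against 9.78, 9.63 and 9.85, and rose by 0.73 (adjusted p = 0.00289).

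Of the 65 subunit genes, 13 fell and 3 rose in DKO, and 49 did not pass the test. The 13 that fell are 20% of the subunit genes, where 7.69% of all genes fell, and the 3 that rose are 4.62%, where 9.71% of all genes rose. The median difference was -0.12 over the subunit genes and -0.04 over all genes, and 46 of the 65 differences (70.8%) were negative, against 57.9% of all genes. In 26 subunit genes (40.0%) all 3 DKO values lay below all 3 WT values, as they did in 19.6% of all genes. In 9 (13.8%) they lay above, as in 16.2% of all genes. The median signal over the 65 genes was 8.96, 8.86 and 9.02 in the DKO samples and 9.11, 9.28 and 9.12 in the WT samples, so that these sample medians did not overlap between groups, with DKO replicate 2 the lowest and WT replicate 2 the highest.

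**Figure D1:**
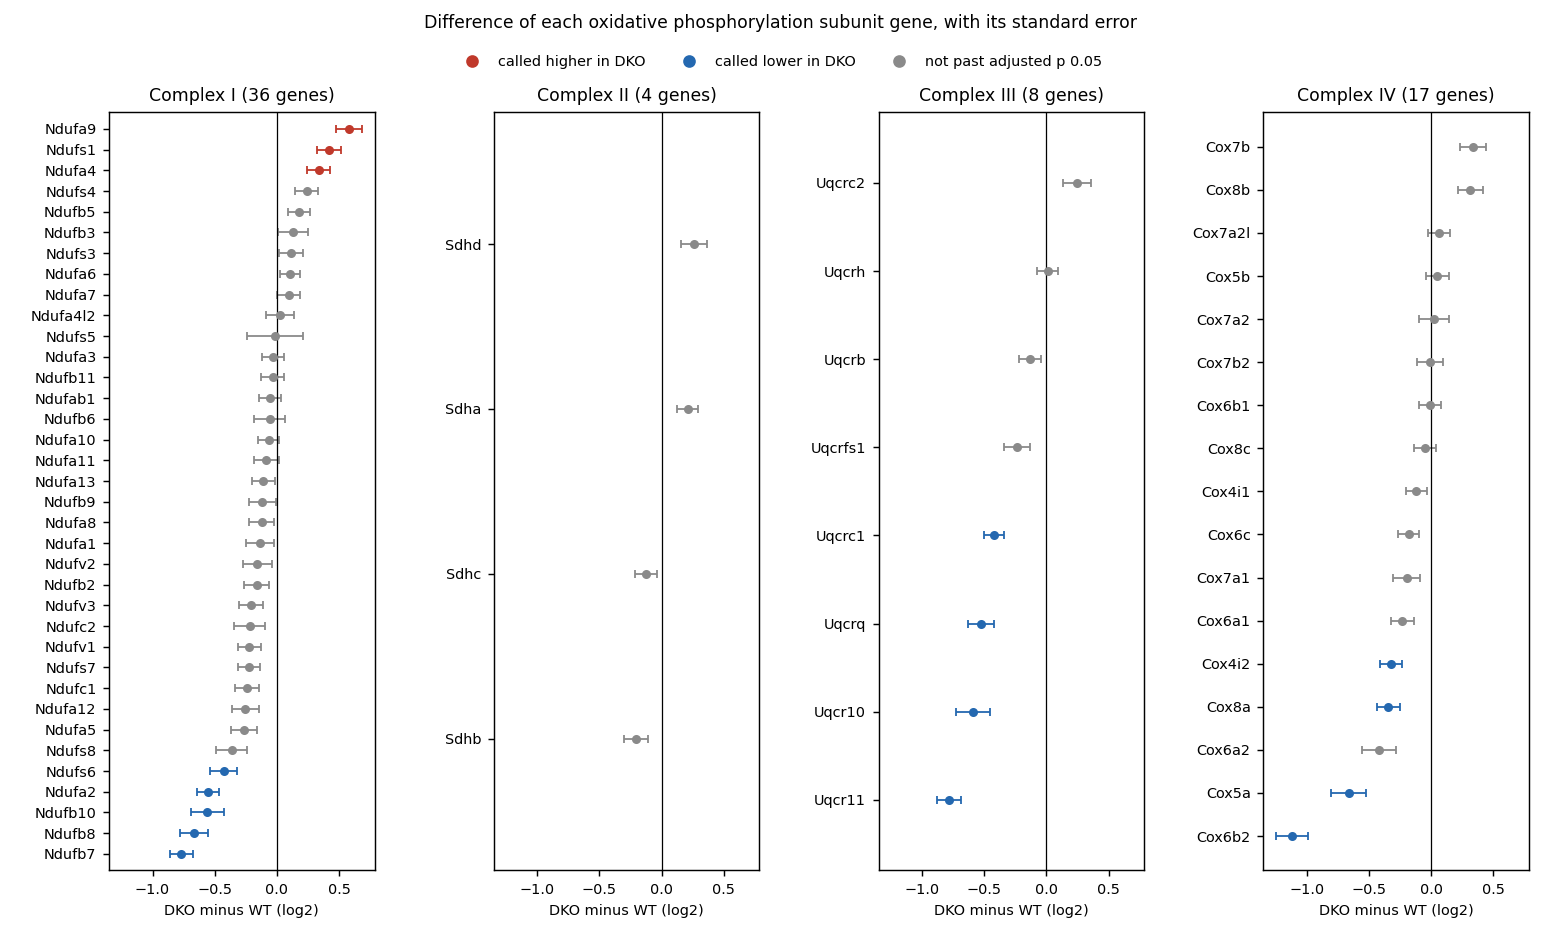
Each of the 65 subunit genes is plotted by its DKO minus WT difference in log2 units, with its standard error as the bar, in 1 panel per complex. Blue points fell, red points rose and grey points did not pass an adjusted p of 0.05: the 3 red points are all in the complex I panel, complex II has no coloured point, and Cox6b2 at -1.12 is the lowest.

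The split depended on how arrays were scaled. Quantile normalization of the deposited values gave 24 falls and 3 rises, cyclic loess 22 and 2, and median centring 11 and 5. As shares, 36.9%, 33.8% and 16.9% of the subunit genes fell under these scalings, where 7.75%, 7.42% and 5.62% of all genes did, and 4.62%, 3.08% and 7.69% rose, where 7.96%, 8.61% and 11.3% of all genes did. Leaving out 1 sample at a time gave 8 to 12 falls (12.3% to 18.5%) and 1 to 4 rises (1.54% to 6.15%). Calls over all genes dropped too, to 4.23% to 6.96% that fell and 6.27% to 9.37% that rose. The fewest falls, 8, came without DKO replicate 2, and the single rise came without DKO replicate 1 and again without DKO replicate 3. Ndufb7, Ndufb8, Ndufa2, Ndufa9, Uqcr11, Uqcrc1, Uqcrq, Cox6b2 and Cox5a, 9 of the 16 called genes, passed adjusted p 0.05 in every alternative fit.

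**Figure D2:**
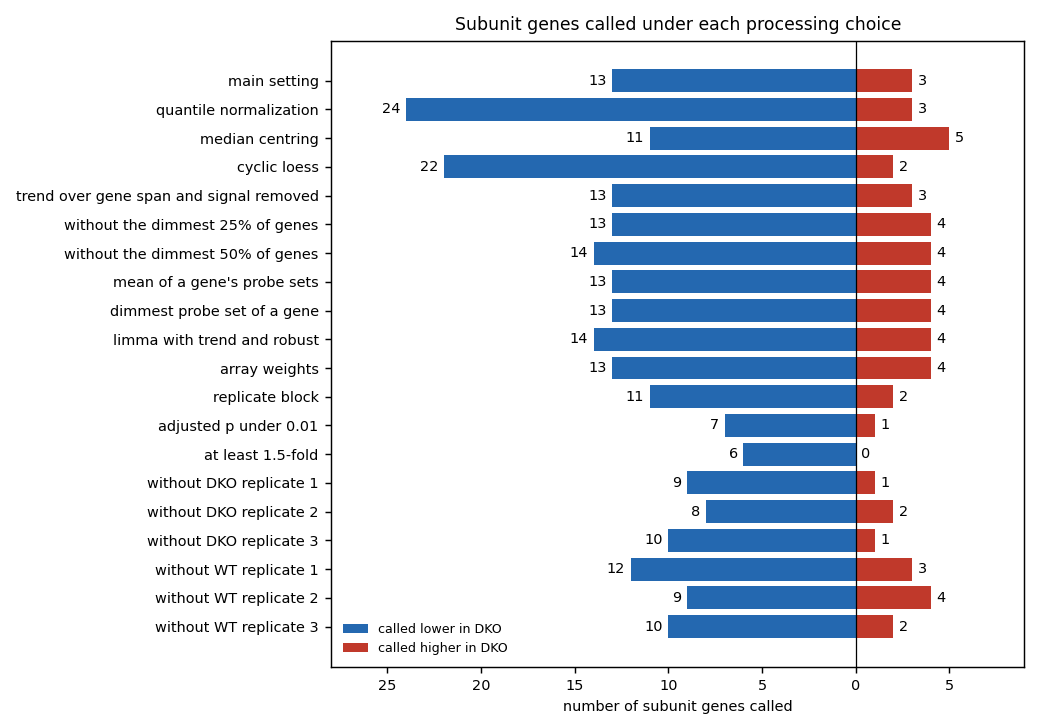
Bars count the subunit genes that fell (blue, to the left) and rose (red, to the right) in DKO under each processing choice, with the count at each bar's end. Falls outnumber rises in every setting, from 24 against 3 after quantile normalization to 6 against 0 when at least a 1.5-fold change was also required.

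Promoter sequence was examined because factors that act on many of these genes together are known: NRF1, the ETS factor GABP and YY1. RefSeq's promoter table for GRCm38.p6, with 250 bases before and 50 after each gene's start, held 54 windows of 52 of the 65 genes. Both strands were searched for NRF1 (GCGCA, any base, then GCGC), ETS (CCGGAAG), YY1 (AAGATGGCG), SP1 (GGGCGG) and the RUNX motif (TGTGGT). The end of the ETS motif is the start of the YY1 motif, so 1 stretch can hold both. The NRF1 motif was in 11 of the 54 windows (20.4%) and in 4.59% of all 32817 windows, ETS in 11 (20.4%) and 8.86%, and YY1 in 5 (9.26%) and 1.40%. RUNX was in 8 (14.8%) against 16.8% of all windows, and SP1 in 23 (42.6%) against 35.6%. A match describes these letters and is not a bound site, and the windows of subunit genes and of all genes were not matched for base composition.

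Among the 10 genes that fell and had a window, NRF1 was found in 2 (Ndufs6 and Uqcrc1), ETS in 3 (Cox8a, Ndufb7 and Uqcr11), YY1 in 1 (Ndufs6), RUNX in 2 (Ndufb10 and Uqcr11) and SP1 in 3. Of the 2 that rose and had a window, Ndufa9 held YY1. The 40 genes with a window that did not pass held NRF1 in 8, ETS in 8, YY1 in 3, RUNX in 6 and SP1 in 19. A link between a motif and a fall was not tested. The 4 sequences shown are from genes that fell and hold a whole match to NRF1, ETS or RUNX before the start. An ETS match of Cox8a begins 5 bases before the start and runs past it, and Cox8a is not shown. Each is the 250 bases before the start on the gene's strand, 5′ to 3′, with matches to NRF1, ETS, YY1 or RUNX in capitals.
Uqcr11, chr10:80406822-80407071, - strand: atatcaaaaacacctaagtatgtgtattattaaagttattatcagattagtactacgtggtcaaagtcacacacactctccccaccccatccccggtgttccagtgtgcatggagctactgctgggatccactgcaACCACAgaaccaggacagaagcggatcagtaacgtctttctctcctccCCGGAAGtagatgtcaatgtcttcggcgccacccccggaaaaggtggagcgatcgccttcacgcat
Ndufb7, chr8:83566508-83566757, + strand: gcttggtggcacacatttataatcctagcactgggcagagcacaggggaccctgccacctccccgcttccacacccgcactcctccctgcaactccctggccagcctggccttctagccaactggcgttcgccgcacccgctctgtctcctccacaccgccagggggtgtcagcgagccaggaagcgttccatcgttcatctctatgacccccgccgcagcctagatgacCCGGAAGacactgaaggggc
Ndufs6, chr13:73328483-73328732, - strand: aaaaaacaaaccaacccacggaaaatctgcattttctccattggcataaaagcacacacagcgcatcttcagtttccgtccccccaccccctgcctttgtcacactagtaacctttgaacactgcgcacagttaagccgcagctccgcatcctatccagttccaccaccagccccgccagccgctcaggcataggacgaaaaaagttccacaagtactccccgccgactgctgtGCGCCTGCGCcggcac
Ndufb10, chr17:24724424-24724673, - strand: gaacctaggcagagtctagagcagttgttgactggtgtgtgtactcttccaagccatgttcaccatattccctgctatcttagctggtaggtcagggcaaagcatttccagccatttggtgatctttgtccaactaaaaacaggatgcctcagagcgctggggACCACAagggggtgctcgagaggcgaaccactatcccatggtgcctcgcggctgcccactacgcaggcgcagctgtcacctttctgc
The Uqcr11 sequence holds ACCACA, the RUNX motif on the opposite strand, beginning 114 bases before the start, and the ETS motif 66 bases before it. Ndufb7 has the ETS motif 20 bases before the start, Ndufs6 the NRF1 motif 16 bases before it on the opposite strand, and Ndufb10 a RUNX motif 87 bases before it, also on the opposite strand.

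Complex I, the NADH dehydrogenase, had 5 genes that fell, 3 that rose and 28 that did not pass, with a median difference of -0.11. All 3 DKO values lay below the WT values in 12 of the 36 (33.3%, against 19.6% of all genes) and above them in 6 (16.7%, against 16.2%). The 3 rises are 8.33% of the complex, near the 9.71% of all genes, and the 5 falls 13.9%, against 7.69%. The falls numbered 3 without DKO replicate 1 or 2 or without WT replicate 2 or 3. The largest fall was in Ndufb7, an accessory subunit of the distal membrane arm. Its signal was 9.82, 9.70 and 9.78 in DKO and 10.41, 10.58 and 10.61 in WT. The groups were far apart relative to their spread: the difference was -0.77 (SE 0.0919, adjusted p = 0.000683), or 1.70-fold higher in WT.

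Another distal-arm accessory subunit, Ndufb8, gave 8.96, 8.86 and 9.11 against 9.62, 9.82 and 9.49, a difference of -0.67 (SE 0.110, adjusted p = 0.00336). Ndufb10, of the same arm, gave 9.17, 9.05 and 9.14 against 9.36, 9.86 and 9.81, a difference of -0.56 (SE 0.132, adjusted p = 0.0178). For Ndufb10, WT replicate 1 lay closer to the DKO samples than to the other 2 WT samples, and the call was lost without any 1 of DKO replicates 1, 2 and 3 or WT replicates 2 and 3. No value of either gene overlapped between the groups.

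Both other genes of complex I that fell belong to the NADH-oxidising module at the tip of the matrix arm. Ndufa2, an accessory subunit with a thioredoxin-like fold, gave 9.65, 9.63 and 9.71 against 10.13, 10.31 and 10.23, a difference of -0.56 (SE 0.0878, adjusted p = 0.0027). Ndufs6, a zinc-binding accessory subunit, gave 10.01, 9.87 and 10.19 against 10.34, 10.54 and 10.48, a difference of -0.43 (SE 0.107, adjusted p = 0.0225). The gap between the highest DKO and the lowest WT value was narrow for Ndufs6, and its call was lost without DKO replicate 1 or 2 or without WT replicate 2 or 3.

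The 3 genes that rose have separate places in the chain. Ndufa9 encodes a nucleotide-binding accessory subunit at the joint between the matrix and membrane arms. It gave 10.03, 9.84 and 9.95 in DKO against 9.17, 9.50 and 9.41 in WT, a difference of 0.58 (SE 0.108, adjusted p = 0.00588), or 1.49-fold. Every DKO sample was above every WT sample, with WT replicate 1 the lowest.

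Ndufs1 encodes the largest iron-sulphur subunit of the matrix arm. Its signals were 8.67, 8.48 and 8.72 against 8.13, 8.22 and 8.28, a difference of 0.42 (SE 0.0961, adjusted p = 0.0166), or 1.33-fold. Its adjusted p reached 0.0902 at most over the alternatives, and the call was lost under quantile normalization, cyclic loess, removal of the trend with gene span and signal, and without DKO replicate 1 or 3. Ndufa4 was named for complex I and is now placed in complex IV. It gave 11.40, 11.38 and 11.42 against 10.92, 11.17 and 11.10, a difference of 0.34 (SE 0.0928, adjusted p = 0.0344), or 1.26-fold. Its 3 DKO values were nearly equal, and the call was lost under cyclic loess and without DKO replicate 1, 2 or 3 or WT replicate 1 or 3, with an adjusted p of up to 0.114.

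By position in complex I, an assignment made from general knowledge after the values were seen and given without a test, the 10 genes of the NADH-oxidising module had 2 falls, 1 rise and a median of -0.18. The 7 of them that did not pass ran from -0.25 (Ndufa12) to 0.24 (Ndufs4). The 5 genes of the coenzyme Q module had 1 rise and a median of -0.22, with Ndufs8, an iron-sulphur core subunit, at -0.36 (adjusted p = 0.0725). The 10 genes of the distal membrane arm had 3 falls and a median of -0.09, and the other 7 ran from -0.16 (Ndufb2) to 0.18 (Ndufb5). In the proximal membrane arm, with 9 genes, limma called 0 in either direction and 1 had an unadjusted p under 0.05. All 9 differences there were negative, from -0.24 (Ndufc1) to -0.02 (Ndufs5), with a median of -0.11. The 5 falls were all among the 28 accessory subunits, which also had 1 rise (median -0.11). The 6 core subunits had 1 rise and 0 falls, with 3 negative differences at an unadjusted p under 0.05 (median -0.19). Over all genes 7.69% fell and 9.71% rose. Falls were 20% of the NADH-oxidising module, 0% of the coenzyme Q module, 30% of the distal arm and 0% of the proximal arm. Rises were 10%, 20%, 0% and 0% of them. Falls were 17.9% of the accessory and 0% of the core subunits, and rises 3.57% and 16.7%.

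Spread between replicates limited single genes. Ndufs5, a small subunit of the proximal arm, ranged from 7.33 to 8.37 over the WT samples, and its difference of -0.02 had a 95% interval of -0.52 to 0.49. Ndufb6, of the distal arm, was at -0.06 with an interval of -0.35 to 0.23. Neither interval bounds the difference closely.

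**Figure D3:**
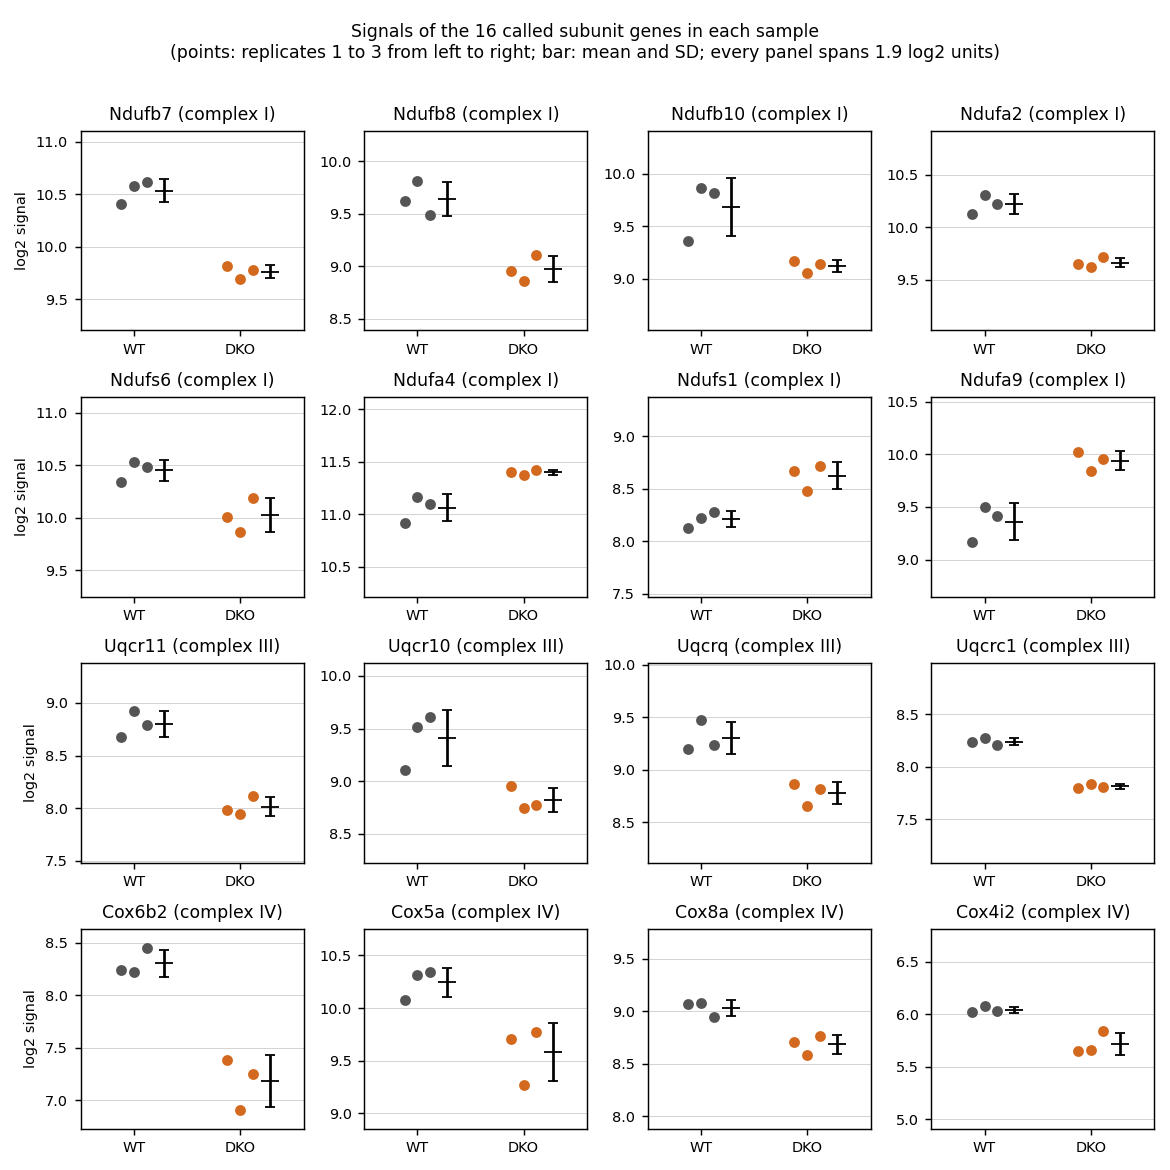
The log2 signal of each of the 16 called subunit genes is plotted by sample, WT in grey and DKO in orange, with replicates 1 to 3 from left to right and the mean and SD beside them (n = 3). Every panel spans the same range in log2 units, so gaps can be compared: the gap is widest for Cox6b2 and narrow for Ndufs6 and Uqcr10.

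Complex II, succinate dehydrogenase, also works in the tricarboxylic acid cycle and is built of 4 subunits, all of nuclear origin. With limma 0 of its 4 genes passed, and 2 had an unadjusted p under 0.05. The flavoprotein gene Sdha gave 9.47, 9.43 and 9.46 against 9.29, 9.28 and 9.17, a difference of 0.21 (95% interval 0.02 to 0.39, adjusted p = 0.120). Sdhd, for a membrane anchor, gave 7.56, 7.49 and 7.66 against 7.50, 7.19 and 7.25, a difference of 0.26 (95% interval 0.02 to 0.49, adjusted p = 0.129).

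The values of Sdha did not overlap, whereas WT replicate 1 of Sdhd was above DKO replicate 2. The Sdha difference depended on scaling. It was 0.04 after quantile normalization (limma adjusted p = 0.795) and 0.25 after median centring (limma adjusted p = 0.0694). The iron-sulphur subunit gene Sdhb was at -0.21 (95% interval -0.43 to 0.02) and the other anchor gene, Sdhc, at -0.13 (95% interval -0.33 to 0.07). The median over the 4 genes, 0.04, changed sign with the scaling, to -0.13 after quantile normalization and -0.10 after cyclic loess.

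In complex III, which passes electrons from coenzyme Q to cytochrome c, 4 of 8 genes fell and 0 rose, and the median difference was -0.33. The falls are 50% of the complex, where 7.69% of all genes fell, and the rises 0%, where 9.71% of all genes rose. None of the 8 had an unadjusted p under 0.05 in the upward direction. The 4 falls were 3 of the 5 small accessory subunits and 1 of the 3 core and Rieske subunits. The sample median over the 8 genes was 8.91, 8.70 and 8.79 in DKO and 9.15, 9.48 and 9.18 in WT, without overlap.

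Uqcr11 encodes the smallest accessory subunit of the complex. Its signal was 7.98, 7.94 and 8.12 in DKO against 8.68, 8.92 and 8.79 in WT. The difference was -0.78 (SE 0.0975, adjusted p = 0.000829), or 1.72-fold higher in WT, and no spread within a group came near it. Its promoter, shown above, holds both the ETS and the RUNX motif. RUNX was in 14.8% of the subunit genes' windows and 16.8% of all windows, and a link to this fall was not tested. With another Uqcr11 probe set in place of this one the difference was -0.52.

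Uqcr10, a further small accessory subunit, gave 8.95, 8.74 and 8.77 against 9.11, 9.51 and 9.61, a difference of -0.59 (SE 0.134, adjusted p = 0.0151). WT replicate 1 was the nearest to the DKO samples, and the call was lost without DKO replicate 2 or 3 or WT replicate 3. Uqcrq, a subunit next to the membrane-embedded cytochrome b, gave 8.86, 8.66 and 8.81 against 9.19, 9.47 and 9.24, a difference of -0.52 (SE 0.105, adjusted p = 0.00838). Uqcrc1, a core protein of the matrix side, gave 7.80, 7.84 and 7.80 against 8.23, 8.28 and 8.20. Its difference was -0.42 (SE 0.0804, adjusted p = 0.00643), and both groups were tight.

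The other core protein gene, Uqcrc2, was at 0.25 (95% interval -0.0045 to 0.50, adjusted p = 0.169), on the other side of 0 from Uqcrc1. Uqcrfs1, the Rieske iron-sulphur protein, was at -0.24 (adjusted p = 0.158), Uqcrb at -0.13 (adjusted p = 0.345) and Uqcrh at 0.01 (adjusted p = 0.943). Cyc1, the cytochrome c1 of the same complex, lies outside the symbol rule and was at -0.24 (adjusted p = 0.192). Uqcc2, an assembly factor of complex III, gave 8.08, 8.0 and 8.18 against 8.71, 8.99 and 8.73, a difference of -0.73 (SE 0.104, adjusted p = 0.00172). Its difference was -0.36 with a dimmer probe set.

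Complex IV, cytochrome c oxidase, had 4 of 17 genes that fell and 0 that rose, with a median difference of -0.12. As shares, 23.5% fell, against 7.69% of all genes, and 0% rose, against 9.71%. The falls numbered 2 without DKO replicate 1 or 2 or without WT replicate 1 or 2. In the upward direction 2 had an unadjusted p under 0.05, Cox7b at 0.34 (adjusted p = 0.057) and Cox8b at 0.31 (adjusted p = 0.0616). Complex IV is unusual in having paired isoforms, some found in most tissues and others mainly in heart, muscle, lung or testis. The sample median over the 17 genes overlapped between groups, at 9.70, 9.26 and 9.69 against 9.75, 9.65 and 9.38.

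Cox6b2, the testis isoform of a subunit facing the intermembrane space, had the largest difference of all 65 genes. It gave 7.38, 6.91 and 7.25 in DKO against 8.24, 8.22 and 8.45 in WT, a difference of -1.12 (SE 0.130, adjusted p = 0.000588), or 2.17-fold higher in WT. All DKO samples were below all WT samples, with DKO replicate 2 the lowest. Its widespread counterpart Cox6b1 was at -0.01 (95% interval -0.21 to 0.19, adjusted p = 0.952). The difference between the 2 isoforms' changes was not tested.

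Cox5a, which has no tissue isoform, gave 9.70, 9.26 and 9.78 against 10.08, 10.31 and 10.34, a difference of -0.66 (SE 0.141, adjusted p = 0.011). DKO replicate 2 was well below the other 2 DKO samples. Cox8a, the widespread form of the smallest subunit, gave 8.71, 8.59 and 8.77 against 9.07, 9.08 and 8.94, a difference of -0.34 (SE 0.0903, adjusted p = 0.0284). Cox4i2, the isoform known from lung and from low oxygen, gave 5.65, 5.66 and 5.84 against 6.02, 6.07 and 6.03, a difference of -0.33 (SE 0.0893, adjusted p = 0.0336). The Cox8a call was lost after median centring and without any 1 of 5 samples (all but WT replicate 3). The Cox4i2 call was lost under quantile normalization, median centring, cyclic loess and trend removal, and without any 1 of 5 samples (all but DKO replicate 3).

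The 8 isoforms known from restricted tissues had 2 falls (Cox6b2 and Cox4i2), 0 rises (1 at an unadjusted p under 0.05) and a median of -0.12. Falls are 25% of these isoforms, against 7.69% of all genes, and rises 0%, against 9.71%. Of the others, the heart and muscle forms Cox6a2 and Cox7a1 were at -0.42 (adjusted p = 0.0653) and -0.20 (adjusted p = 0.263). The heart and muscle form Cox8b was at 0.31, with 4.91, 4.92 and 5.19 against 4.71, 4.63 and 4.74. It passed as a rise under quantile normalization, median centring, cyclic loess and trend removal. Its WT values lay near the arrays' lower quartiles, which were 4.63 to 4.66. The testis forms Cox7b2 and Cox8c were at -0.01 and -0.05 and Ndufa4l2, known from low oxygen, at 0.02, and each of these 3 changed sign in some alternatives. The Cox7b2 signal, 3.05 to 3.38 over the 6 arrays, was under each array's lower quartile.

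The widespread isoforms and subunits that did not pass lay between -0.23 (Cox6a1) and 0.34 (Cox7b). Among them were Cox4i1, which takes the place of Cox4i2 in most tissues, at -0.12 (adjusted p = 0.382) and Cox6c at -0.18 (adjusted p = 0.180). Cox7b had 10.95, 10.77 and 11.00 against 10.45, 10.73 and 10.52, and it passed as a rise under 8 alternatives. Cox5b, Cox7a2 and Cox6b1 were within 0.05 of 0. Genes with further roles were Ndufab1, which is also the mitochondrial acyl carrier protein, at -0.06 (adjusted p = 0.701), and Cox7a2l, known for joining complexes III and IV into supercomplexes, at 0.06 (adjusted p = 0.673). Each of this pair changed sign in some alternatives.

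Of the 65 genes, 11 had more than 1 probe set with a single symbol. Uqcr11 was the single called gene among them. The other probe sets of Cox6c (-0.20), Ndufa11 (-0.12) and Cox7b (0.45) had the sign of the one used. Ndufab1 had the opposite sign on its other probe set (0.15), as did Ndufb11 and Cox5b, which stayed within 0.05 of 0 on both. Some of these genes have processed pseudogenes or near copies, and how far a probe set reads them was not tested.

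The subunit genes are short and their signal is high. Over all genes on these arrays, longer span and higher signal each went weakly with a more positive difference. Their median span, from first to last base of the gene, was 7510 bp against 17738 bp over all genes. The 13 genes that fell had a median of 3825 bp, the 3 that rose 27282 bp and the 49 others 7798 bp. Spearman's correlation of difference with span was 0.38 over the 65 genes and 0.15 over the 19856 genes with a span, as a description across genes of the same arrays. With mean signal it was 0.09 over the 65 and 0.21 over all.

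Bright genes as a whole leaned the other way from the subunit genes. Of 2979 genes at or above the lower quartile of the 65 genes' signals, 28.2% rose and 9.40% fell, with a median of 0.12. Of the 49 subunit genes in that range, 3 rose (6.12%) and 11 fell (22.4%), with a median of -0.13. After the trend of each array over signal and span was removed, 13 of the 65 genes fell and 3 rose, sharing 14 of 16 calls with the unadjusted values. Ndufs1 and Cox4i2 left the calls and Cox8b and Ndufa12 entered.

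**Figure D4:**
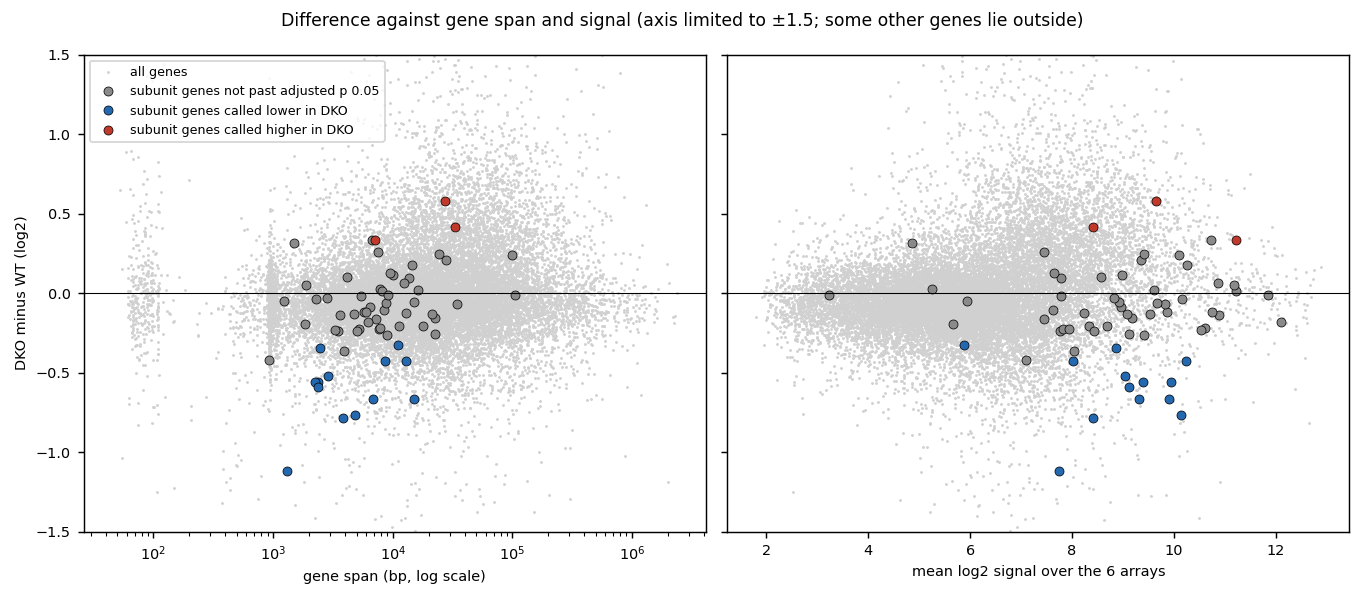
The DKO minus WT difference of each gene, in log2 units, is plotted against gene span in bp (left, log axis) and against mean log2 signal (right), with all genes in light grey and the subunit genes as larger points. The blue points (13 falls) lie towards short spans, with a median of 3825 bp, while the 3 red points have a median of 27282 bp.

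The rest of the pathway was read from lists of genes. Shares of these lists stand against the 9.71% of all genes that rose and the 7.69% that fell. Of 18 ATP synthase genes, 2 rose (11.1%) and 3 fell (16.7%), with a median of -0.05. Atp5g2 rose (0.50, SE 0.0946, adjusted p = 0.00649) and Atp5g1 fell (-0.34, SE 0.0933, adjusted p = 0.0334): these are 2 of the genes for the same mature c subunit of the membrane rotor. Atp5g2 gave 10.44, 10.36 and 10.62 in DKO and 10.02, 9.94 and 9.97 in WT. Atp5b, for the catalytic beta subunit, rose by 0.36 (adjusted p = 0.0377), while Atp5d, for the central stalk, and the small subunit gene Atp5mpl fell by 0.34 and 0.38. Of these 5 calls, Atp5g2 alone held when any 1 sample was left out.

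Among 14 measured genes of electron carriers and coenzyme Q synthesis, 3 fell (21.4%) and 1 rose (7.14%), with a median of -0.07. Coq7, a hydroxylase of coenzyme Q synthesis, was at -0.57 (adjusted p = 0.00873), its partner Coq9 at -0.40 (adjusted p = 0.0133) and the kinase-like Coq8a at -0.43 (adjusted p = 0.0456). Pdss2, which makes the isoprenoid tail of coenzyme Q, rose by 0.51 (adjusted p = 0.00802). Coq7 gave 6.46, 6.15 and 6.50 in DKO and 6.94, 7.07 and 6.83 in WT. Of 39 assembly factors, 1 rose and Uqcc2 fell (2.56% each way, median 0.07). These counts moved with the processing: 6 of the 39 fell under quantile normalization and under cyclic loess, and 4 without WT replicate 1. Of all genes, 7.75%, 7.42% and 6.96% fell in these settings. Without WT replicate 2, 6 of the 39 rose, where 9.24% of all genes rose. In the main comparison the riser was Ndufaf7, a methyltransferase that acts on complex I, at 0.52 (adjusted p = 0.011).

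Only 2 of the 13 subunits encoded by mitochondrial DNA had a usable probe set, and limma called 0 of them, with 0 at an unadjusted p under 0.05. COX2 was at -0.16 (adjusted p = 0.263) and ND3 at -0.10 (adjusted p = 0.514). Of 25 genes listed as regulators of mitochondrial biogenesis and mitochondrial DNA, 2 rose (8%) and 3 fell (12%), with a median of 0.08. Tfam, which packages and transcribes mitochondrial DNA, gave 8.33, 8.29 and 8.34 in DKO against 7.79, 7.95 and 7.68 in WT, a rise of 0.51 (SE 0.0938, adjusted p = 0.00561). Gabpb2, a partner of the ETS factor GABP, rose by 0.36 (adjusted p = 0.0214).

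The 3 genes of the regulator list that fell were Ppargc1a, a coactivator of mitochondrial biogenesis, at -0.51 (adjusted p = 0.0136), the kinase gene Stk11 at -0.48 (adjusted p = 0.0174) and the adaptor gene Ldb1 at -0.43 (adjusted p = 0.0211). The 12% of falls counts Ldb1, which is not specific to mitochondrial biogenesis and whose place on the list was not tested. The genes for NRF1, for the DNA-binding subunit of GABP and for YY1 did not pass: Nrf1 was at 0.29 (adjusted p = 0.121), Gabpa at 0.24 (adjusted p = 0.122) and Yy1 at 0.18 (adjusted p = 0.324). In the tricarboxylic acid cycle and pyruvate entry, 1 of 22 genes rose and 1 fell (4.55% each way, median 0.01). Fh1, fumarase, rose by 0.49 (adjusted p = 0.00912), and Pdk4, an inhibitor of pyruvate dehydrogenase, was at -0.49 (adjusted p = 0.047). Pdk4 was dim, at 4.18, 4.18 and 3.92 in DKO and 4.63, 4.27 and 4.86 in WT. The arrays' lower quartiles were 4.63 to 4.66. Calls lost under at least 1 scaling were Coq8a, Gabpb2, Pdk4, Atp5b, Atp5d and Atp5g1. Without DKO replicate 3 the calls of Ppargc1a, Ndufaf7, Coq9, Stk11 and Ldb1 were lost, and the last 3 of these also without DKO replicate 1. Stk11 was lost without WT replicate 3 too, and Ldb1 without WT replicate 1.

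**Figure D5:**
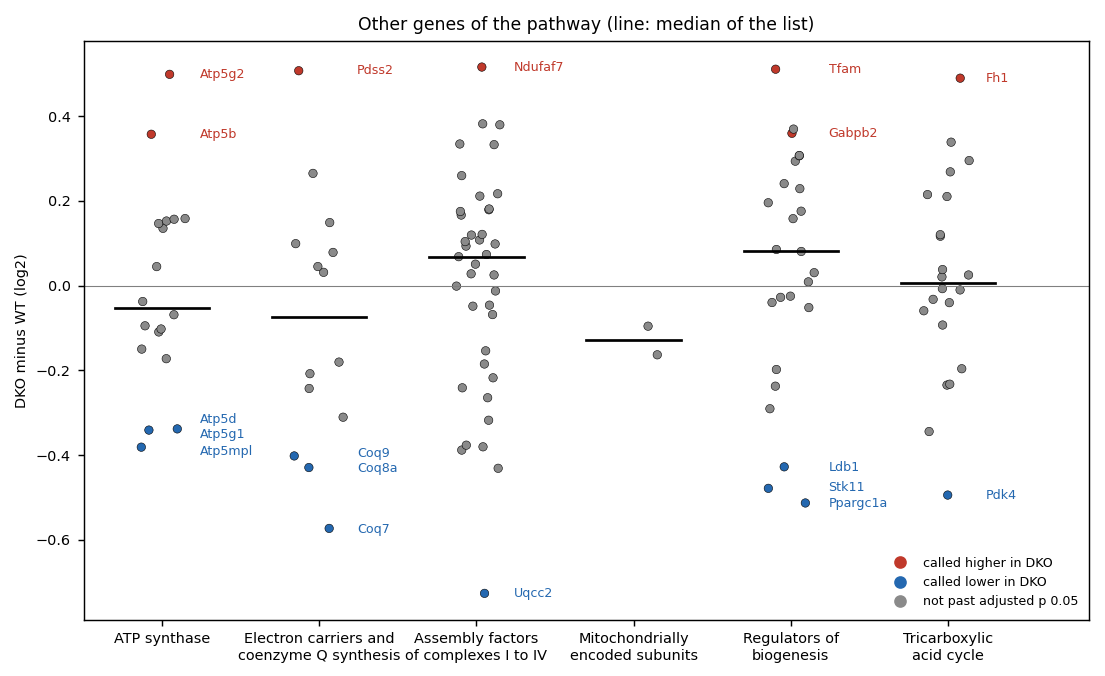
Each point is a gene of 1 of 6 lists around the respiratory chain, placed by its DKO minus WT difference in log2 units, with the list's median as a line. Medians lie between -0.13 and 0.08, the called genes are named in red (rose) and blue (fell), and Uqcc2 at -0.73 is the lowest.

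Some marker genes of several cell types differed between the same samples. For comparison, 9.71% of all genes rose and 7.69% fell. In these bulk samples fewer cells of a type and less RNA per cell cannot be told apart. Of 7 measured megakaryocyte and platelet markers 5 rose (71.4%) and 0 fell, also at an unadjusted p under 0.05. Their median level was 7.98 to 8.33 over the DKO samples and 7.12 to 7.32 over the WT samples. Of 9 granulocyte and monocyte markers 3 fell (33.3%) and 1 rose (11.1%), with median levels of 6.56 to 6.85 and 8.0 to 8.20. Of 9 mast cell and basophil markers 3 rose and 3 fell (33.3% each way). The 7 erythroid markers had 2 falls (28.6%), and the 7 B lymphoid markers 1 fall (14.3%). From the 7 T and natural killer markers 0 passed (1 at an unadjusted p under 0.05).

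Among 7 markers of the KSL gate and of stem cells 3 rose (42.9%) and 2 fell (28.6%), and among 8 mature lineage markers 1 fell (12.5%). Below every array's lower quartile were 5 of the T and natural killer markers, 2 of the mature lineage, 2 of the B lymphoid and 1 of the mast cell and basophil markers. Of 9 cell cycle genes 1 rose and 1 fell (11.1% each way). Their median level was 8.69, 8.24 and 8.78 in DKO against 8.77, 9.32 and 8.95 in WT. As with the subunit genes, DKO replicate 2 was the lowest and WT replicate 2 the highest. The part of cell makeup or cycling in the subunit genes' differences was not tested.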

How the data were processed

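Per the labels, amplified RNA (NuGEN) was hybridised to Affymetrix Mouse Gene 1.0 ST arrays. The deposited values are log2 signals, 1 per probe set and array. Sample titles name gene-level RMA and the design text MAS 5.0. Their range of 1.25 to 13.7 is that of log2 values. The software was Affymetrix Expression Console 1.0, per the submitters' processing notes. Neither the annotation version nor the build is given in the sources used here.

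Of 35556 probe sets, 21789 had 1 symbol, giving 19938 genes. Groups were compared with limma 3.58.1 (R 4.3.3, lmFit and eBayes, two-sided, 3 against 3 arrays), with Benjamini-Hochberg adjustment over all genes. The fit was checked on simulated data. The number of arrays limits the precision, and p-values measure the spread between these samples. Alternatives were scaling, trend removal, dim filters, probe set choice, limma settings, a replicate block, thresholds and leaving out each sample.

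Named genes are, per complex, up to 6 called in each direction with the smallest p (or 2 where a direction had none), the restricted isoforms, those with other roles, and up to 3 called per pathway list and direction. Ndufs8, Ndufs4, Ndufs5, Ndufa12, Ndufa11, Ndufb2, Ndufb5, Ndufb6, Ndufb11, Ndufc1, Sdhb, Sdhc, Uqcrc2, Uqcrfs1, Uqcrb, Uqcrh, Cyc1, Cox4i1, Cox5b, Cox6a1, Cox6b1, Cox6c, Cox7a2, Cox7b, COX2, ND3, Nrf1, Gabpa, Yy1 and Kit are outside it and were chosen with their values in view. The members and lists were chosen with earlier results of these data known.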

Additional observations from a re-analysis of the deposited data

Results flagged for a closer look

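A second Uqcr11 probe set, which the comparison did not use because it was dimmer, also differed between the groups. Its signals were 7.94, 7.67 and 8.04 in DKO and 8.27, 8.55 and 8.38 in WT, a difference of -0.52 (SE 0.128, limma adjusted p = 0.0497 over all probe sets), with all DKO values below all WT values. The probe set used gave -0.78 in the same samples. Whether both read the same transcripts was not tested.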

How the results depend on the processing

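Over all alternatives run, falls ranged from 6 to 24 and rises from 0 to 5. Quantile normalization gave 24 falls (12 in complex I, 2 in complex II), 1 rise in complex IV, a median of -0.23 and a complex II median of -0.13. Cyclic loess gave 22 falls (12 in complex I, 1 in complex II), 1 rise each in complexes I and IV, a median of -0.23 and a complex II median of -0.10. Median centring gave 5 rises, with 2 rises and 2 falls in complex IV. Trend removal gave 1 rise in complex IV and a complex II median of -0.11. Complex IV also had 1 rise without the dimmest 25% or 50% of genes, with the mean or the dimmest probe set, with trend and robust settings, with array weights, and with Ndufa4 counted there. An adjusted p under 0.01 left 1 rise (complex I) and 7 falls (3 in complex I, 1 in complex IV). Requiring at least 1.5-fold left 0 rises (0 in complex I) and 6 falls, 2 each in complexes I, III and IV. The cause of these shifts was not tested, beyond the stricter thresholds.

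Without 1 sample, falls ranged from 8 to 12 and rises from 1 to 4. Complex I had 3 to 6 falls and 1 to 3 rises, complex II 0 to 1 rises, and complex IV 2 to 4 falls and 0 to 1 rises. The replicate number as a block gave 2 rises and 11 falls, with 2 falls in complex IV, and Ndufa4, Cox8a and Cox4i2 were the calls it lost. Same-numbered samples did not deviate together (correlations -0.01, -0.10 and -0.04), so the numbers are not taken as pairs.

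Genes near 0 changed sign. Cox7b2 was at 0.0492, 0.0355, 0.0571 and 0.0656 under quantile normalization, median centring, cyclic loess and trend removal, and between -0.10 and 0.0643 without 1 sample. Cox8c was at 0.0059, 0.0178 and 0.0362 under quantile normalization, cyclic loess and trend removal. Cox7a2l was at -0.0511 under cyclic loess and -0.0386 under trend removal. Ndufab1 was at 0.0470 with the mean and 0.15 with the dimmest probe set. Ndufa4l2 was between -0.0932 and 0.0940 without 1 sample. No called gene named here changed sign in any alternative. Called counts of the pathway lists ranged, for rises and falls, over 0 to 2 and 0 to 4 in ATP synthase, 0 to 1 and 0 to 4 in electron carriers, 0 to 6 and 1 to 6 in assembly factors, 0 to 4 and 0 to 3 in regulators, and 0 to 3 and 0 to 2 in the tricarboxylic acid cycle. Over the same alternatives, the counts over all genes ranged from 873 to 2254 rises and from 458 to 1576 falls.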
